A study of Homo sapiens with 4 samples.

Results

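Transcripts of 36 genes for chromatin remodellers and for large proteins that work with them were examined for crosslinking to PR100, out of 20033 protein-coding genes on the chromosomes of GRCh38. The 36 genes were taken by their names in the GENCODE annotation: 8 CHD genes, 13 SWI/SNF subunits, 7 genes of the ISWI ATPases and their partners, 3 genes of the INO80 and SWR complexes, the single SNF2-type ATPases ATRX and HELLS, and 3 KMT2 histone methyltransferases. The rule used gene names and no measured value, but the genes were chosen with earlier results of these data known. PR100 is a FLAG-tagged run of proline-arginine dipeptides of the kind made from the C9orf72 repeat expansion. HEK293T cells, a human embryonic kidney line, were transiently transfected with the PR100-FLAG plasmid, induced with 150 ng/ml doxycycline for 24 h and crosslinked with UV light at 160 mJ/cm2. In iiCLIP, RNA bound to the tagged peptide is purified and every unique cDNA marks 1 crosslinked nucleotide, called here a crosslinking event. All 4 libraries belong to this 1 condition, with SDS-PAGE used to purify the complexes of replicates 1 to 3 and beads those of replicate 4, so a difference of replicate 4 cannot be told apart from one between purifications. Control libraries were not analysed here, and the events that arise without PR100 were not measured. The labels do not say that replicates came from separate cultures, so the spread between them may be technical.

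Chromatin remodellers use the energy of ATP to slide, evict or exchange nucleosomes, and a SNF2-type ATPase is the motor of each. CHD proteins read histones through chromodomains, SWI/SNF (BAF and PBAF) complexes open chromatin at promoters and enhancers, ISWI complexes space nucleosomes, and INO80 and SRCAP complexes act on the histone variant H2A.Z. KMT2 proteins are not remodellers. They methylate histone H3 on lysine 4 and are, like many remodellers, long nuclear proteins with charged, disordered stretches.

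The libraries held 334057, 604816, 125694 and 179636 events in replicates 1 to 4, and the 36 genes took 2496, 4790, 779 and 1847 of them on the gene strand. Expressed per 1000000 events of a library (CPM), this was 7472, 7920, 6198 and 10282, a mean of 7968 ± 1707 (SD, n = 4), or 0.797% ± 0.171 of a library. Replicate 4 was the highest and replicate 3, the shallowest library, the lowest. In replicate 3 the events of these genes were also piled on fewer positions, with 3.54 events per crosslinked position against 1.505, 1.59 and 1.03 in replicates 1, 2 and 4. The labels give replicate 3 a shorter random barcode than the other libraries. The part of this difference in the results was not tested, and values of replicate 3 are given separately wherever they stand apart.

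Events were found in all 36 genes, over a wide range. The pooled libraries held between 22 events in SMARCD1 and 646 in KMT2C, with a median of 243, against a median of 15 over all protein-coding genes. A limit of 200 pooled events was used. The study combined this limit with low binding in control libraries, a condition that was not applied here. It was reached by 22 of the 36 genes, where 3.49% of all protein-coding genes reached it. By family these were 6 of 8 CHD genes, 5 of 13 SWI/SNF subunits, 4 of 7 ISWI genes, 2 of 3 INO80/SWR genes, both ATRX and HELLS, and all 3 KMT2 genes. Just inside the limit were BRD9 with 210 events and SMARCA5 with 213, and just outside were CHD6 with 196 and CHD3 with 192. Because the limit is a fixed count, the number of genes that reach it depends on depth. Replicate 2, the deepest library, holds 604816 of the 1244203 pooled events. Without it, 10 of the 36 genes had 200 events. The pooled count of each of the 36 genes was 1.68 to 2.45 times as high with that library as without it. The share of all protein-coding genes that reach the limit without it is not given here. With events shared with another gene left out, 19 of the 36 genes reached the limit. SRCAP fell from 618 to 55 events and CHD4 from 399 to 2. BRD9 then had 183 events, as 27 of its events also lie in the protein-coding gene ZDHHC11. The level of each transcript in the cells was not measured, so a bound transcript and an abundant one cannot be told apart by these counts. Across the 36 genes, pooled events followed the length of the coding sequence (Spearman's rho 0.61) more than the length of the gene (0.23).

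**Figure D1:**
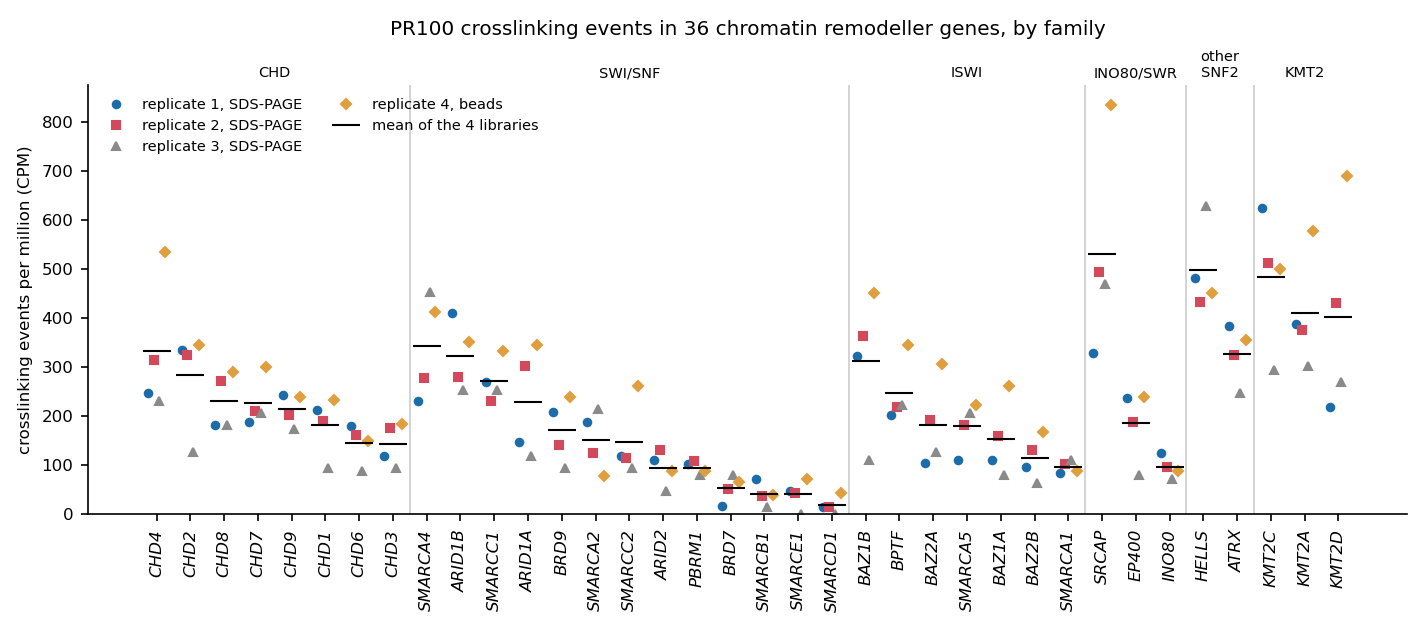
Crosslinking events as CPM (y axis) in each of the 36 genes (x axis), grouped by family, with 1 symbol for each library and a bar for the mean of the 4 libraries. KMT2C, SRCAP and HELLS have the highest means, SMARCD1 the lowest, and replicate 4 lies at the top in many genes.

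All 3 KMT2 genes were among the 5 genes with the most pooled events. KMT2C (chr7:152134922-152436644, GRCh38, minus strand), a methyltransferase of enhancers, had 626, 513, 294 and 501 CPM in replicates 1 to 4, or 483 ± 138 (SD, n = 4). KMT2A, also known as MLL1, had 389, 375, 302 and 579 CPM. KMT2D, the paralog of KMT2C, had 219, 432, 270.5 and 690 CPM, a spread of 212 (SD) around a mean of 403. The 3 genes therefore overlapped across libraries, and their order changed from one library to the next. Of the 499 events of KMT2A, 180 lay where a second protein-coding gene model of the same strand is annotated, as did 57 of the 492 of KMT2D.

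SRCAP (chr16:30698209-30741409, plus strand), the ATPase that loads H2A.Z, had the highest mean. Its values were 329, 494, 469 and 835 CPM, or 532 ± 215 (SD, n = 4), and replicate 4 stood above the other libraries. A second protein-coding gene model of the same strand spans 563 of its 618 events, and these events cannot be assigned to 1 of the 2 models. EP400, the ATPase of the TIP60 complex, had 246 pooled events and INO80, the ATPase of the complex of that name, had 125.

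HELLS and ATRX are ATPases that act outside of the large complexes. HELLS (chr10:94545329-94613905, plus strand), which is needed for DNA methylation of repeats, had 482, 433, 629 and 451 CPM, or 499 ± 88.9 (SD, n = 4). Of its 583 events, 350 lay under a long non-coding RNA of the same strand, and 362 fell within the canonical transcript. ATRX, which places histone H3.3 with DAXX, had 383, 326, 247 and 356 CPM. The SD of both genes, 88.9 and 59.1 CPM, was below the 215 of SRCAP and the 212 of KMT2D.

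Among the ISWI genes, BAZ1B (chr7:73440406-73522293, minus strand), the WSTF subunit that pairs with SMARCA5, came first with 323, 364, 111 and 451 CPM. Replicate 3 was low for this gene, with 14 events. BPTF, the large subunit of NURF, had 290 pooled events, BAZ2A, the NoRC subunit at ribosomal DNA, 222, and the ATPase SMARCA5 213. BAZ1A, BAZ2B and SMARCA1, the second ISWI ATPase, had 191, 149 and 120.

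CHD4, the NuRD ATPase, and CHD2 led the CHD family. CHD4 (chr12:6570082-6614524, minus strand) had 248, 316, 231 and 534 CPM, or 332 ± 140 (SD, n = 4), and 397 of its 399 events also lie in a second protein-coding model of the same strand. CHD2, which acts at active genes, had 335, 326, 127 and 345 CPM, so that replicates 1, 2 and 4 lay close together and replicate 3 below them. CHD8, CHD7, CHD9 and CHD1 had 300, 270, 268 and 240 pooled events. CHD6 and CHD3, the latter another NuRD ATPase, were below 200.

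The SWI/SNF genes ranged from 22 to 401 pooled events. ARID1B, a subunit that defines canonical BAF, had 410, 279, 255 and 351 CPM, or 324 ± 70.6 (SD, n = 4). The ATPase SMARCA4 (BRG1) had 376 pooled events against 180 for its paralog SMARCA2 (BRM), the scaffold subunits SMARCC1 and SMARCC2 had 322 and 168, and ARID1A had 309. The PBAF subunits ARID2 and PBRM1 had 139 and 126. SMARCD1, SMARCE1 and SMARCB1, core subunits with short coding sequences, were the lowest of the 36 genes. SMARCD1 had 5, 9, 0 and 8 events in replicates 1 to 4, SMARCE1 16, 26, 0 and 13, and SMARCB1 24, 23, 2 and 7. A count of 0 of 125694 events in replicate 3 allows up to 3 events, or 23.9 CPM, if each event is taken as independent. This limit is above the 15.0 and 14.9 CPM of SMARCD1 in replicates 1 and 2, a level that was not detectable at that depth, and below its 44.5 CPM in replicate 4. SMARCE1 had 47.9, 43.0 and 72.4 CPM in replicates 1, 2 and 4, all above the limit. Events of the 36 genes were piled at 3.54 per crosslinked position in replicate 3, so the true limit is higher. A count of 0 there therefore does not show a lower level of either gene. All 55 events of SMARCE1 lie in a second protein-coding model, and all 168 of SMARCC2 under a long non-coding model of the same strand.

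Genes ranked alike between libraries. Spearman's rho of the CPM of the 36 genes was between 0.78 (replicates 1 and 3) and 0.95 (replicates 2 and 4), a description over genes that differ in length. Of the 32 genes with at least 100 pooled events, CPM was higher in replicate 4 than in each of the SDS-PAGE libraries for 20, and lower than in each for 1. Over all 2398 protein-coding genes with that many events, 35.1% were higher and 17.8% lower. The 1 lower gene was SMARCA2, with 189, 126, 215 and 77.9 CPM.

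Coding sequence held more of the events of these genes than any other region in replicates 2 to 4, and introns held slightly more in replicate 1. The share of their events in coding sequence was 42.5% (95% Wilson interval 40.6 to 44.5) in replicate 1, 58.4% (57.0 to 59.8) in replicate 2, 49.9% (46.4 to 53.4) in replicate 3 and 71.8% (69.8 to 73.9) in replicate 4. These intervals cover counting error only. The mean was 55.7% ± 12.6 (SD, n = 4), against 28.1% ± 9.52 for the other protein-coding genes. Libraries differed widely, with replicate 1 low and replicate 4 high in both sets of genes, but the difference within a library was steady at 23.9, 28.3, 26.8 and 31.4 percentage points. The mean difference was 27.6 ± 3.11, higher in 4 of 4 libraries, with p = 0.125 in a two-sided exact test that permutes the signs of the 4 differences (sign-flip test). This is the smallest p that 4 libraries can give, so no result over the libraries can pass 0.05. Introns held 31.0% ± 11.5 of the events of the 36 genes against 54.6% ± 11.8 in the other genes, and 3′ UTRs held 8.27% ± 1.497 and 5′ UTRs 2.25% ± 0.69. In the remaining 2.76% ± 0.52, the events lay in exons of transcripts that are not typed as protein-coding or have no coding sequence.

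Because introns are far longer than exons, densities were compared as well. In coding sequence the 36 genes held 14.1, 20.5, 13.7 and 32.8 CPM per kb in replicates 1 to 4, and in introns 0.847, 0.550, 0.539 and 0.453 CPM per kb. Coding sequence was therefore denser than introns by a log2 ratio of 4.06, 5.22, 4.67 and 6.18. The mean ratio was 5.03 ± 0.90 (SD, n = 4), with p = 0.125 in the sign-flip test, exact and two-sided. In the other protein-coding genes the log2 ratio was 4.16 ± 0.81. The ratio of the 36 genes was higher in 4 of 4 libraries, by 0.73, 0.84, 0.91 and 0.98, a mean of 0.87 ± 0.11 (p = 0.125, same permutation test). Both densities were higher in these genes than in the rest: 20.3 ± 8.90 against 5.39 ± 2.17 CPM per kb in coding sequence and 0.597 ± 0.172 against 0.289 ± 0.060 in introns. The density in 3′ UTRs was 4.54 ± 0.35 against 1.62 ± 0.39 CPM per kb. By gene, the median 3′ UTR density was 3.77 pooled events per kb in the 36 genes. It was nearly the same, 3.66, in all genes with at least 100 pooled events, and 0 in all protein-coding genes.

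**Figure D2:**
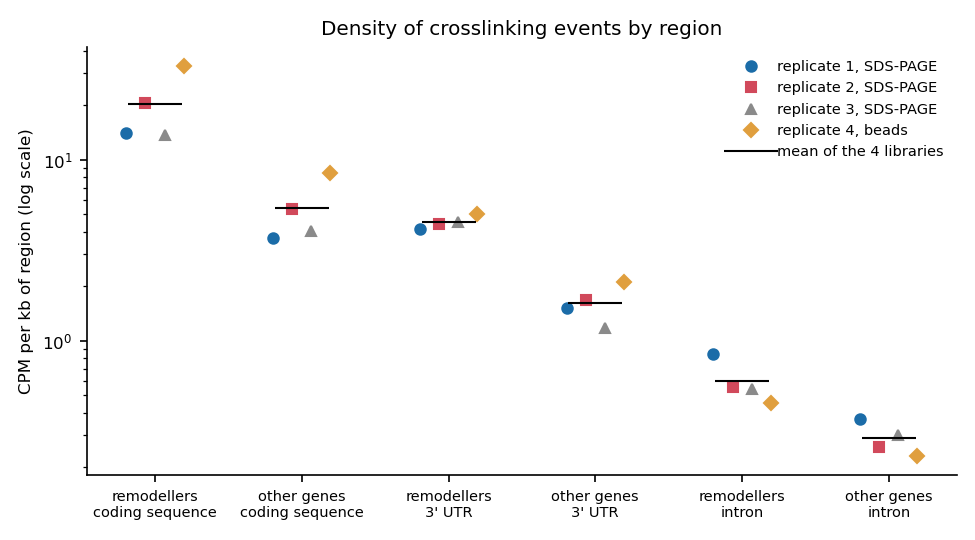
CPM per kb of coding sequence, 3′ UTR and intron (y axis, log scale) for the 36 remodeller genes and for the other protein-coding genes, with 1 symbol for each library and a bar for the mean. In each region the 4 libraries of the remodeller genes lie above those of the other genes, and coding sequence lies far above intron in both.

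Gene by gene, the coding sequence was the denser region in all 4 libraries for 28 of the 32 genes with at least 100 pooled events. Over all genes with that many events, a coding sequence and introns, this share was 45.6%. A gene with no coding event in 1 library cannot be denser there in all 4 libraries. The median coding sequence was 5.64 kb in the 36 genes and 2.58 kb in all genes with at least 100 events. The part of this length in the share was not tested. With libraries pooled, coding sequence was denser in 2263 of the 2277 genes with events in both regions. A density of 20 or more pooled coding events per kb was found in 21 of the 36 genes, against 7% of protein-coding genes with a coding sequence. Their median was 22.3 pooled coding events per kb, compared with 12.6 in all genes with at least 100 events and 1.53 in all protein-coding genes. For introns the medians were closer, at 0.763, 0.843 and 0.257 events per kb.

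The densest coding sequences belonged to genes of 4 families. BAZ1B had 37.0, 45.3, 21.5 and 80.1 CPM per kb of coding sequence in replicates 1 to 4, or 56.9 pooled events per kb. CHD4 had 29.99, 44.2, 27.9 and 79.0 CPM per kb, or 54.4 events per kb. SRCAP had 25.1, 43.2, 37.5 and 73.0 CPM per kb, or 52.3 events per kb. In these 3 genes replicate 4 was the highest library. SMARCA5 had 24.7, 47.7, 32.8 and 61.7 CPM per kb, also 52.3 events per kb. HELLS had 17.3, 43.1, 69.1 and 58.4 CPM per kb, or 51.0 events per kb, with replicate 3 the highest. The 5 genes overlapped in their libraries, and no order among them held in each library. At the other end, ARID2 had 6.32 events per kb, SMARCD1 7.51 and PBRM1 8.22.

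HELLS differed from the other dense genes in where its events lay. The share of its events in coding sequence was 9.94% (95% Wilson interval 6.21 to 15.5) in replicate 1 and 27.5%, 30.4% and 35.8% in replicates 2 to 4. In SRCAP it was 74.5% (65.7 to 81.8) in replicate 1 and 85.3%, 78.0% and 85.3% in the others. The share of SRCAP was above that of HELLS in each library. HELLS also had the highest intron density, 5.24 pooled events per kb from 114, 110, 36 and 25 events. BRD9, a subunit of non-canonical BAF, followed with 3.67 events per kb from 41, 53, 6 and 21 events. Part of both counts lay outside the canonical transcript, which spans 362 of the 583 events of HELLS and 115 of the 210 of BRD9. Within it the intron density was 3.82 events per kb in HELLS and 2.20 in BRD9. KMT2D and SRCAP had 2.01 intron events per kb each, from 33 and 59 events, and ARID1A had 1.51 from 110. In KMT2D the counts were 11, 15, 4 and 3, in SRCAP 19, 20, 7 and 13, and in ARID1A 29, 57, 15 and 9. Across the 36 genes Spearman's rho between coding and intron density was 0.57, a description of genes that may also differ in transcript level.

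**Figure D3:**
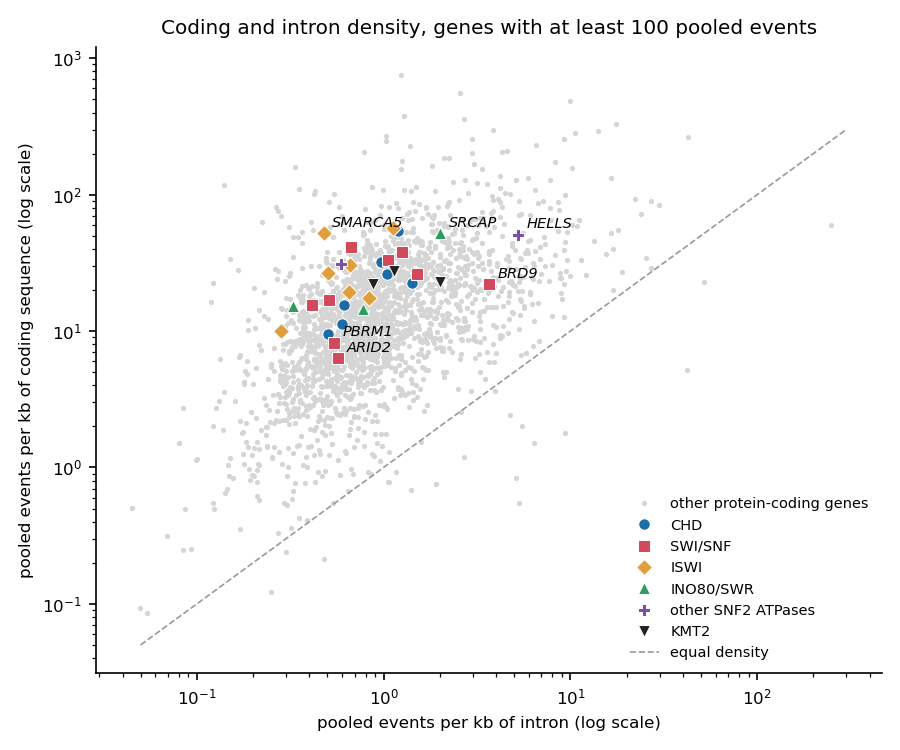
Pooled events per kb of intron (x axis, log scale) and of coding sequence (y axis, log scale) for protein-coding genes with at least 100 pooled events, with the remodeller genes coloured by family and a dashed line of equal density. The plot leaves out 121 of the 2398 genes, which have no event or no length in 1 of the regions. All 32 remodeller genes lie above the line, as do 2263 of all 2277 genes plotted.

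Within introns, events were denser close to exons. Of the intron events of the 36 genes, 7.95%, 9.12%, 9.33% and 14.3% in replicates 1 to 4 lay within 100 nt of an exon, where 5.52% of the intron length lies. The log2 ratio of the density there to that in the rest of the introns was 0.56, 0.78, 0.82 and 1.51, a mean of 0.92 ± 0.41 (SD, n = 4, p = 0.125 in the sign-flip test, exact and two-sided). All 4 libraries showed this direction, with replicate 4 the highest.

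The authors called clusters of significant positions on the pooled libraries and on each library alone. The 36 genes held 109 pooled clusters with 1516 cDNAs, in 29 genes (11.3% of all protein-coding genes held a cluster). The 7 genes with none were ARID1B, CHD6, CHD3, ARID2, PBRM1, SMARCB1 and SMARCD1, and of these only ARID1B was above 200 events. Of the clusters, 96 had their highest position in coding sequence (88.1%), 7 in an intron, 5 in a 3′ UTR and 1 in a 5′ UTR. BAZ1B and CHD4 had 10 clusters each, HELLS 9, SRCAP 8 and SMARCA4 7. Clusters held 15.3% of the events of the 36 genes and 8.94% of the events of the other protein-coding genes. Support by single libraries was thin: 18 of the 109 had events in all 4 libraries, 32 overlapped a cluster called in a single library by at least 1 nt, 24 of these in replicate 2, and 1 overlapped clusters of more than 1 library. In 30 of the 109 clusters, all cDNAs of the highest position came from replicate 3.

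The reference genome sequence is given for the 9 coding clusters with the most cDNAs. Where a window runs past the end of an exon, it follows the genome and not the spliced RNA. Each line gives the 30 nt that begin at the highest position of the cluster and run downstream on the RNA, from GRCh38, with the pentamer GANGA in capitals, where N stands for A, C or G but not T. These 3 purine-rich pentamers, and GAAGA first of all, are the ones the study looked at near PR100 sites. The windows are named by gene and by the codon of the canonical transcript at the highest position.
SMARCA4 codon 1098: agtgctgctgttctgccaaatgacctccct
BAZ1B codon 784: ttgaagGAAGAaaatgataaGAAGAgagca
SMARCA4 codon 571: acaaggctgcccaggtcgccaaggagaaaa
HELLS codon 68: ttcaacatttgcttgaaaaaagcaatatat
BAZ2A codon 1014: ctgaaaactgttctggccaagcgaactggg
CHD4 codon 130: ccaagcggaagGAGGAGGAGGAGGAGGAgg
CHD4 codon 1655: attgtggtaGAAGAcaaaggtgggtgtttg
CHD4 codon 1281: aagtggcccagtatgtggtacggGAAGAag
SRCAP codon 40: tctagtggggcaggcggcatctccccgcag

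The window of BAZ1B (chr7:73477082-73477111, minus strand, exon 7 of 20) holds GAAGA at 2 places. Its cluster of 27 cDNAs had 3, 11, 3 and 10 in replicates 1 to 4, and it is the 1 cluster of the 36 genes that was called in more than 1 library, in replicates 2 and 4. Of the 10 codons read downstream of the highest position, 3 were for lysine, 2 for glutamate and 1 for aspartate.

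CHD4 held 3 of these clusters. The first (window chr12:6601980-6602009, minus strand, exon 4 of 40) lies in a run of GAGGA repeats at codon 130 of 1912. Of the 10 codons downstream, 6 were for glutamate, 1 for aspartate and 2 for lysine. Its 23 cDNAs were spread as 7, 5, 6 and 5 over replicates 1 to 4, so each library had events there, but the 6 cDNAs of the highest position were all from replicate 3. The second (window chr12:6578835-6578864, exon 34) holds 1 GAAGA and runs over the end of the exon, and its 22 cDNAs came from replicates 2 and 4 alone, with 10 and 12. The third (window chr12:6587392-6587421, exon 25) holds 1 GAAGA and had 1, 14, 0 and 7 cDNAs.

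The other 5 windows hold none of the 3 pentamers. The cluster with the most cDNAs of all, in SMARCA4 (window chr19:11027862-11027891, plus strand, exon 24 of 35), had 3, 14, 10 and 3 cDNAs. Its highest position had 10, all from replicate 3. The other SMARCA4 cluster (window chr19:10996331-10996360, exon 10) had 13, 6, 0 and 8 cDNAs, and 4 of the 10 codons downstream were for lysine. The HELLS cluster (window chr10:94554175-94554204, plus strand, exon 3 of 22) had 4, 7, 6 and 7 cDNAs. The BAZ2A cluster (window chr12:56603670-56603699, minus strand, exon 17 of 29) had 2, 11, 7 and 3. The SRCAP cluster (window chr16:30704127-30704156, plus strand, exon 4 of 34) had 7, 13, 0 and 2. Highest positions of the HELLS and BAZ2A clusters were from replicate 3 alone.

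Over all 96 coding clusters, 35 (36.5%) had GAAGA in this 30-nt window and 43 (44.8%) had 1 of the 3 pentamers. Among all coding positions of the same genes, weighted by the number of clusters of each gene, 12.4% had GAAGA and 19.5% had 1 of the 3 pentamers in the 30 nt that follow. The clusters whose highest position was from replicate 3 alone stood apart. Of these 22 coding clusters 4 had GAAGA, against 31 of the other 74 (41.9%).

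Outside coding sequence, the clusters with the most cDNAs lay in SMARCC1, BAZ1B and HELLS. The SMARCC1 cluster (chr3:47586719-47586839, minus strand) in the 3′ UTR had 2, 8, 11 and 2 cDNAs, and the 11 of its highest position were from replicate 3. The BAZ1B cluster (chr7:73441669-73441798, minus strand) in the 3′ UTR had 7, 11, 0 and 3. The HELLS cluster (chr10:94605523-94605657, plus strand) had 4, 6, 11 and 0 cDNAs and lay in an intron of the gene model, beyond the end of the canonical transcript.

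GAAGA was next examined over all coding events, whether in a cluster or not. A GAAGA start from 5 nt upstream to 30 nt downstream was found at 23.3% (95% Wilson interval 20.8 to 25.9), 23.2% (21.6 to 24.8), 14.7% (11.5 to 18.5) and 25.3% (23.1 to 27.7) of the coding events of the 36 genes in replicates 1 to 4. At the coding positions of the same genes, weighted by their events, it was 14.9%, 14.3%, 14.3% and 14.3%. The log2 ratio was 0.65, 0.69, 0.03 and 0.82, a mean of 0.55 ± 0.35 (SD, n = 4, p = 0.125 in the sign-flip test, exact and two-sided). Replicates 1, 2 and 4 lay together and replicate 3 at the level of the sequence itself.

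The other protein-coding genes gave nearly the same ratio, 0.52 ± 0.07. The difference within libraries was 0.10, 0.12, -0.38 and 0.27, a mean of 0.03 ± 0.28 (p = 0.875, same permutation test), smaller than its spread, and it was -0.055 without replicate 4 and -0.0037 without replicate 2. As a description of the sequence, GAAGA was near a median of 15.6% of the coding positions in the 36 genes and 8.43% in all protein-coding genes. In introns of the 36 genes GAAGA was near 9.56%, 10.6%, 0.373% and 6.21% of events and near 3.79%, 3.82%, 3.77% and 3.81% of positions. Replicate 3 had 1 intron event near GAAGA among 268, with a log2 ratio of -3.34 against 1.33, 1.47 and 0.71 in replicates 1, 2 and 4.

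Families differed in the share of coding positions near GAAGA, weighted by the events of each gene. In the ISWI genes 35.5%, 28.9%, 31.2% and 35.3% of coding events had GAAGA near, compared with 19.7% ± 0.42 of coding positions. In the CHD genes the events were at 29.5%, 26.7%, 16.5% and 30.3% and the positions at 16.9% ± 0.38. In the SWI/SNF subunits the events were at 21.6%, 21.0%, 19.7% and 22.9% and the positions at 12.98% ± 1.248. For these 3 families the events lay above the positions in each library, by a narrow margin in replicate 3 for the CHD genes. In the KMT2 genes the events were at 14.6%, 8.88%, 0% and 11.7% and the positions at 8.82% ± 0.41, the lowest of the 6 families. The 0 of 70 events in replicate 3 allows up to 4.29% if each event is taken as independent. Events of the 36 genes were piled there at 3.54 per crosslinked position, so the true limit is higher. In the INO80/SWR genes the events were at 10.9%, 17.9%, 3.51% and 19.4%, on both sides of the positions at 10.2% ± 0.29. ATRX and HELLS had the highest share of positions together, 20.2% ± 1.80, with events at 25%, 48.5%, 16.7% and 39.2%, below the positions in replicate 3.

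Single genes were compared where they had at least 50 pooled coding events. Of 27 such genes with coding events in each library, 9 had GAAGA nearer to events than to positions in all 4 libraries, and 14.7% of all genes tested in this way did. Passing in all 4 libraries also depends on the number of coding events in each. The part of this number in the 2 shares was not tested. HELLS had the highest pooled ratio: GAAGA was near 38.3% of its 141 coding events and 12.3% of its coding positions, a log2 ratio of 1.64, with 18.8% in replicate 1, 29.2% in replicate 3, 27.6% in replicate 4 and the highest share in replicate 2. BAZ2B followed at 1.42, from 66 events. CHD2, with 37.3% of events and 19.2% of positions, and CHD4, with 29.1% and 17.5%, were above their positions in each library. BAZ1B has the most GAAGA in its coding sequence, 27.8% of positions, and 37.9% of its events were near it, with the highest share, 53.1%, in replicate 4. At the low end were SMARCA5, with 21.8% of events and 19.1% of positions, KMT2C, with 11.8% and 11.2%, and KMT2D, with 4.40% of events against 6.20% of positions. Spearman's rho between coding density and the GAAGA content of the coding sequence was 0.27 across the 36 genes.

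**Figure D4:**
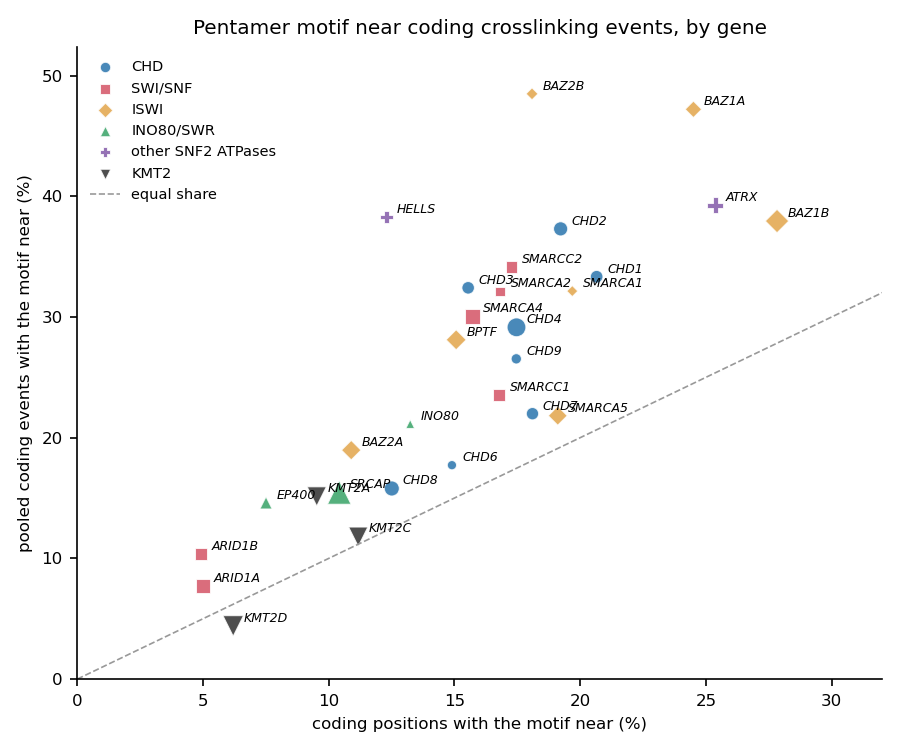
Share of pooled coding events with GAAGA near (y axis, %) against the share of coding positions with GAAGA near (x axis, %) for the 29 remodeller genes with at least 50 pooled coding events, with symbols coloured by family and scaled to the number of coding events. The dashed line marks equal shares, and KMT2D alone lies below it.

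The codons downstream of coding events were also counted, as glutamate, aspartate and lysine are written with purine-rich codons. Codons for aspartate and glutamate made up 15.9%, 16.4%, 14.2% and 16.9% of the codons that start within 30 nt downstream, compared with 13.9%, 13.7%, 13.9% and 13.7% in the coding sequences. The log2 ratio was 0.20 ± 0.12 (SD, n = 4, above 0 in 4 of 4 libraries, p = 0.125 in the sign-flip test, exact and two-sided). Lysine codons made up 8.995%, 8.31%, 5.80% and 9.02% near events and 7.46%, 7.11%, 7.28% and 7.10% in the coding sequences. Their ratio was above 0 in 3 of 4 libraries, with a mean of 0.13 ± 0.31 (p = 0.5, same permutation test), and replicate 3 lay below. Neither ratio differed from that of the other protein-coding genes beyond its spread, with differences of 0.01 ± 0.07 for acidic codons and 0.01 ± 0.22 for lysine codons.

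Along the densest coding sequences, events were spread over most of the length with a few peaks. In bins of 20 codons, BAZ1B had 253 coding events over 75 bins, and its highest bin, codons 781 to 800, had 1, 8, 3 and 7 events in replicates 1 to 4, compared with a mean of 3.37 per bin. In CHD4 the highest of 96 bins was codons 1641 to 1660 with 0, 10, 0 and 11 events, so it rested on replicates 2 and 4. In SRCAP the highest bin, codons 541 to 560, had 1, 2, 10 and 1, and in SMARCA5, codons 321 to 340, it had 2, 4, 6 and 0. The peaks of BAZ1B, CHD4 and SRCAP hold 2, 2 and 5 starts of the 3 pentamers, and the peak of SMARCA5 holds 0. The whole sequences hold 77 starts in 75 bins, 93 in 96, 87 in 162 and 28 in 53, in the same order. The SRCAP peak holds a cluster with its highest position at codon 548, with 9 cDNAs, all from replicate 3. None of the 3 pentamers lies in the 30 nt that begin there. Bins with no event numbered 15 in BAZ1B, 18 in CHD4, 24 of 162 in SRCAP and 9 of 53 in SMARCA5. Exon 7 of BAZ1B, which has 38.3% of the coding length, took 50.6% of the coding events, with 29, 57, 3 and 39 in replicates 1 to 4.

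**Figure D5:**
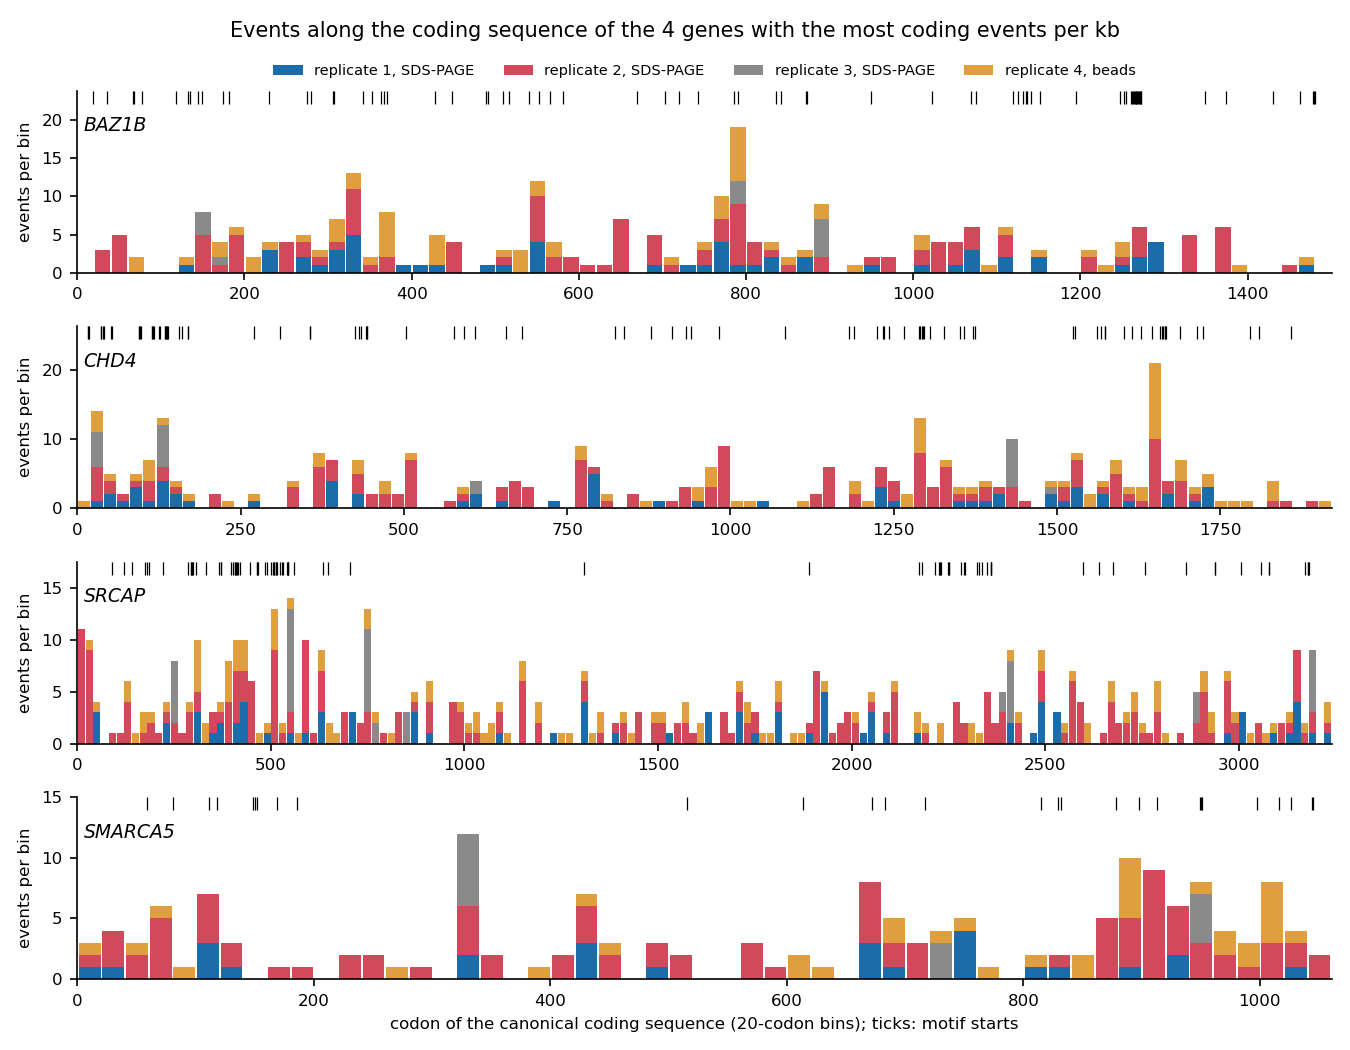
Crosslinking events per bin of 20 codons (y axis) along the canonical coding sequence (x axis, codon) of BAZ1B, CHD4, SRCAP and SMARCA5, stacked by library, with ticks at each start of 1 of the 3 pentamers. Events are spread over most of each sequence, with highest bins of 19, 21, 14 and 12 events.

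Other chromatin genes from lists of related complexes were counted in the same way. Of 106 further subunits, SNF2-type ATPases, KMT2 partners and bromodomain genes, 15 had at least 200 pooled events, against 3.49% of all protein-coding genes. Their median was 92 events, against 15 over all protein-coding genes. The lists of other SWI/SNF subunits had 0 of 14 and other NuRD subunits 3 of 13, led by MTA1 with 427 events. The other INO80, SWR and TIP60 subunits had 1 of 26, TRRAP with 303, the other ISWI subunits 1 of 4, RSF1 with 240, and the other SNF2-type ATPases 1 of 13, ZRANB3 with 208. The other KMT2 and SET1 complex genes had 2 of 13, KMT2B and SETD1A with 252 and 220, and the other bromodomain genes 7 of 24, led by BRD2 with 605 and ASH1L with 460.

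The list nearest to the remodellers in coding density was that of topoisomerases and SMC complexes, whose long proteins untangle and fold DNA. Of its 25 genes, 7 had at least 200 pooled events, led by SMC4 with 442 and SMC1A with 438, and their median of 22.9 pooled coding events per kb was next to the 22.3 of the remodellers. The coding share of the remodellers differed from that of this list by 1.38, 6.41, -4.32 and 4.61 percentage points in replicates 1 to 4, a mean of 2.02 ± 4.71 (p = 0.375 in the sign-flip test, exact and two-sided), less than the spread. Their log2 ratio of coding to intron density was lower by 0.44, 0.05, 0.56 and 0.18, a mean difference of -0.31 ± 0.23, lower in 4 of 4 libraries (p = 0.125, same permutation test). The log2 ratio of GAAGA near coding events to GAAGA near coding positions was higher in the remodellers than in this list by 0.03, 0.14, 0.10 and 0.21, a mean difference of 0.12 ± 0.07, higher in 4 of 4 libraries (p = 0.125, same permutation test).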

How the data were processed

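The 4 PR100-FLAG iiCLIP libraries of HEK293T cells were analysed, and libraries of the controls or GA100 are not part of it. The authors collapsed PCR duplicates by random barcode, mapped reads to GRCh38 (Gencode 27) with STAR, whose version is not given in the sources used here, kept uniquely mapping reads and assigned the preceding nucleotide. The deposited values are raw counts of unique cDNAs for each position, and the cDNA count of each cluster called with iCount, for each library and pooled. Adding up the libraries gave the pooled list exactly, and the totals of 36 of 36 genes were recounted from it.

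Events were placed on GENCODE 44 and counted for each gene that spans them on its strand. Regions came from the union of coding transcripts, in the order coding sequence, 3′ UTR, 5′ UTR, other exon, intron. CPM used the library total. Depth was 334057, 604816, 125694 and 179636 events. Intervals are 95% Wilson intervals, a count of 0 was given a limit of 3 counts, and both cover counting error only. Both take events as independent, so they are too narrow where events pile on the same positions, as in replicate 3. Motif windows ran from 5 nt upstream to 30 nt downstream. Ratios were taken within libraries and tested by an exact permutation of their signs over the 4 libraries (sign-flip test, two-sided). Members and lists were chosen with earlier results of these data known. The genes given with values in every library were the 10 with the most pooled events, the 5 with the most coding events per kb, the 5 with the highest intron density and the 3 with the fewest events, and the clusters were the coding ones with the most cDNAs (9, with a tie) and the 3 highest elsewhere. Other genes were given by pooled counts, except for SMARCA2, BPTF and SMARCC2, whose CPM in each library is given because a count or a check over the 36 genes singled them out. They, and the shares, profiles and flanks named beside the genes, were chosen after their values were seen. A total of 79 alternatives were planned and 2 were added after seeing the data. The motif and density ratios were tested on simulated data, with events drawn in the 36 genes at known ratios. Simulated events were independent and equal in number in each library. The pile-up of events on positions and the unequal depth of the real libraries were therefore not covered. Scripts ran in Python 3.11.15 with pysam 0.24.0, pandas 2.3.3, numpy 2.4.6, scipy 1.17.1 and, for plots, matplotlib 3.10.9.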

Additional observations from a re-analysis of the deposited data

Results flagged for a closer look

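In 3 of the 36 genes, the CPM of 1 library stood far from the other libraries, as judged by the gap to its nearest neighbour divided by the whole range. In CHD2 the ratio was 0.911, with replicate 3 at 127 CPM and replicates 1, 2 and 4 at 335, 326 and 345. In BPTF it was 0.864, with replicate 4 at 345 CPM and replicates 1 to 3 at 204, 218 and 223. In SMARCC2 it was 0.854, with replicate 4 at 262 CPM and replicates 1 to 3 at 119.7, 114 and 95.5. Chance flags about 1 in 20 groups of 4 values, and 44 groups were examined.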

How the results depend on the processing

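Of the alternatives for the counts, ratios and differences of the report, 9 moved a count by over 1.5 times, 3 turned a direction and 69 did neither, although ratios could change in size: the GAAGA log2 ratio of the coding events (0.55) was 1.16 for events inside clusters, 0.32 for motifs upstream and 0.04, with an SD of 2.28, in introns, and that of lysine codons (0.13) was 0.056 to 0.28 when a library was left out. Of 252 alternatives for the pooled counts of single genes, 62 moved the count by over 1.5 times, 36 of them without replicate 2, which lowered the count of each gene by that much (KMT2C from 646 to 336, ARID1A from 309 to 126), and 13 with each position counted once in a library. The 22 genes with at least 200 pooled events became 10 without replicate 2, and 10 to 20 over the 4 ways of leaving out a library. They became 13 with each position counted once in a library, 19 with events shared with another gene left out, and 8 with a limit of 400 events. The share of all protein-coding genes under these alternatives is not given here, and fewer events under a fixed limit lower any such count. The 29 genes with a cluster became 7 with clusters of at least 20 cDNAs, 18 with clusters that overlap a cluster of a single library and 12 with clusters that have events in all 4 libraries, and the 109 clusters became 12, 32 and 18. The difference in the GAAGA log2 ratio between the 36 genes and the other genes (0.03) ranged from -0.055 (without replicate 4) to 0.164 (without replicate 3) when a library was left out, and was -0.70 in introns, an alternative added after seeing the data. The cause was not tested. No paired analysis was possible because all libraries belong to 1 group. With 779 events of these genes in replicate 3, single genes there rest on few events, and no p below 0.125 can be reached.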
